A study of Sus scrofa with 17 samples.

Results

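Interferons act through cell surface receptors that switch on transcription factors such as STAT2 and IRF9, and these in turn drive a large set of genes whose products limit viral replication, alter nucleotide pools and change cell survival. Cells that line tubules and vessels respond to interferon as well as blood cells do, and the response can be started by RNA or DNA sensed inside a cell. MX2, CMPK2, XAF1 and SP110 belong to this set and stand for 4 different actions of it. MX2 (ENSSSCG00000012076) encodes an antiviral dynamin-like GTPase. CMPK2 (ENSSSCG00000008647) encodes a mitochondrial nucleotide kinase, XAF1 (ENSSSCG00000056284) a protein that binds the apoptosis inhibitor XIAP and opposes it, and SP110 (ENSSSCG00000016261) a chromatin reader of nuclear bodies. These 4 genes, of 26560 in the count table, were followed across 17 porcine kidneys. They were picked as interferon effectors that were higher in G3 than in G1 in these same kidneys, so their values in that comparison are given as a description, with no test.

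The kidneys came from wild-type female Dutch Landrace pigs aged 6 months to 1 year, obtained at a slaughterhouse, 1 kidney per animal. All 17 had 32 min of warm ischemia, 24 h of hypothermic machine perfusion (HMP) and then 5 h of normothermic machine perfusion (NMP) with the animal's own blood cells, and all were biopsied when NMP ended. G1 (n = 5) received PBS-1X during HMP and NMP. G2 (n = 6) received extracellular vesicles (EVs, called exosomes in the labels) made by porcine urine progenitor cells (pUPC-EVs) during HMP only, and G3 (n = 6) received them in both HMP and NMP. Hence G2 compared with G1 addresses EVs given in the cold, and by design G3 differs from G2 in the further EVs given during NMP. The paper states, without a test, that lactate dehydrogenase and lactate already seemed lower in G3 when that dose was given. It also reports less IL18 in perfusates of G3 than of G2 during HMP, when both groups received EVs. The NMP dose and such earlier differences cannot be told apart here. There was no group with EVs during NMP only.

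Each kidney gave 19270046 to 24736473 counted reads, with a median of 21504848. Levels are given as CPM, the counts of a gene per 1000000 counted reads of its library after TMM scaling. The tissue label fitted its markers: 6 of 6 proximal tubule markers were matched and summed to 9715 to 20709 CPM per kidney. The summed level of 15 of 16 leukocyte markers had a median of 140.3 CPM in G1 (110.6 to 151.5), 142.3 CPM in G2 (111.1 to 192.4) and 141.7 CPM in G3 (127.0 to 152.5), so that the sums of the groups lay over each other. CD68, with a mean of 72.1 CPM, made up much of this sum. Of the 15 markers, CD14 alone was higher in G2 than in G1 with an unadjusted p under 0.05, without overlap of the groups (log2 0.72, edgeR unadjusted p = 0.000826, adjusted p = 0.840). By their numbers, the sample codes form 3 unbroken runs, here called series A, B and C. In series A there are 2 G1, 2 G2 and 1 G3 kidneys, in series B 2 G1 kidneys and 1 G3 kidney, and in series C 1 G1, 4 G2 and 4 G3 kidneys. What these runs stand for is not given in the sources used here.

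MX2 lies on chromosome 13 of Sscrofa11.1 at chr13:204798633-204821612, close to its family member MX1 at chr13:204843049-204868927 (spans of whole genes in RefSeq). In G1 its level was 128.2, 189.1, 310.5, 356.0 and 388.8 CPM in kidneys 1 to 5. In G2 it ran from 203.6 CPM in kidney 4 to 401.7 CPM in kidney 6, with a median of 277.6 CPM. In G3 it ran from 326.4 CPM in kidney 4 to 666.3 CPM in kidney 6, with a median of 524.2 CPM. The levels of G1 and G2 lay over each other, whereas 4 of the 6 G3 kidneys were above every G2 kidney and 5 of the 6 above every G1 kidney. Mean levels (± SD) were 274.5 ± 111.5 CPM for the 5 kidneys of G1, 287.9 ± 67.8 CPM for the 6 of G2 and 516.3 ± 155.0 CPM for the 6 of G3. Since these are whole biopsies, fewer cells of a type and less RNA per cell cannot be told apart, for MX2 or for any other gene here.

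CMPK2 lies at chr3:128903395-128917873, 5585 bases from RSAD2 at chr3:128880853-128897809. RSAD2 encodes viperin, a further interferon-induced enzyme of nucleotide chemistry, which uses the nucleotide that CMPK2 makes. The CMPK2 level was 12.3, 18.1, 26.4, 33.1 and 33.5 CPM in G1 kidneys 1 to 5. In G2 the lowest was 17.4 CPM in kidney 2, the median 29.8 CPM and the highest 63.2 CPM in kidney 6. In G3 the lowest was 36.2 CPM in kidney 4, the median 49.8 CPM and the highest 96.3 CPM in kidney 6. In G2 there were 3 kidneys at 17.4 to 20.5 CPM, below every G3 kidney, and kidneys 1, 3 and 6 at 39.0, 59.2 and 63.2 CPM, inside the range of G3. The mean (± SD, with n of 5, 6 and 6 here and for the genes that follow) was 24.7 ± 9.34 CPM in G1, 36.3 ± 20.9 in G2 and 59.0 ± 24.2 in G3.

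XAF1 lies at chr12:50644783-50659807, and the whole of this span is shared with the spans of FBXO39 and C12H17orf100. As the strand setting of the counting is not given in the sources used here, reads of overlapping genes may not be told apart. XAF1 had the fewest reads of the 4 genes, 65 to 407 per kidney. Its level was 2.95, 3.56, 7.86, 6.07 and 7.52 CPM in G1 kidneys 1 to 5. In G2 it was lowest in kidney 2 at 2.60 CPM, had a median of 5.90 CPM, and was highest in kidney 3 at 10.9 CPM. In G3 it was lowest in kidney 5 at 9.90 CPM, had a median of 12.0 CPM, and was highest in kidney 6 at 16.7 CPM. G2 kidneys 3 and 6 (10.9 and 10.3 CPM) reached the lower G3 kidneys. Means (± SD) were 5.59 ± 2.25 CPM in G1, 6.55 ± 3.43 in G2 and 12.8 ± 3.11 in G3.

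SP110 lies at chr15:131169911-131226543, and the end of its span overlaps that of its family member SP140 (chr15:131225305-131292172) by 1239 bases. It also overlaps the span of LOC106508139, which with SP140 makes 1527 shared bases. Its level in G1 kidneys 1 to 5 was 12.5, 12.7, 11.1, 13.1 and 12.7 CPM. In G2 it ran from 8.92 CPM in kidney 2 to 13.6 CPM in kidney 3, with a median of 12.5 CPM. In G3 it ran from 16.6 CPM in kidney 1 to 20.6 CPM in kidney 3, with a median of 16.9 CPM. No G1 or G2 kidney reached the lowest G3 kidney, and G1 and G2 lay over each other. The mean (± SD) was 12.4 ± 0.770 CPM in G1, 12.0 ± 1.71 in G2 and 17.6 ± 1.54 in G3.

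**Figure D1:**
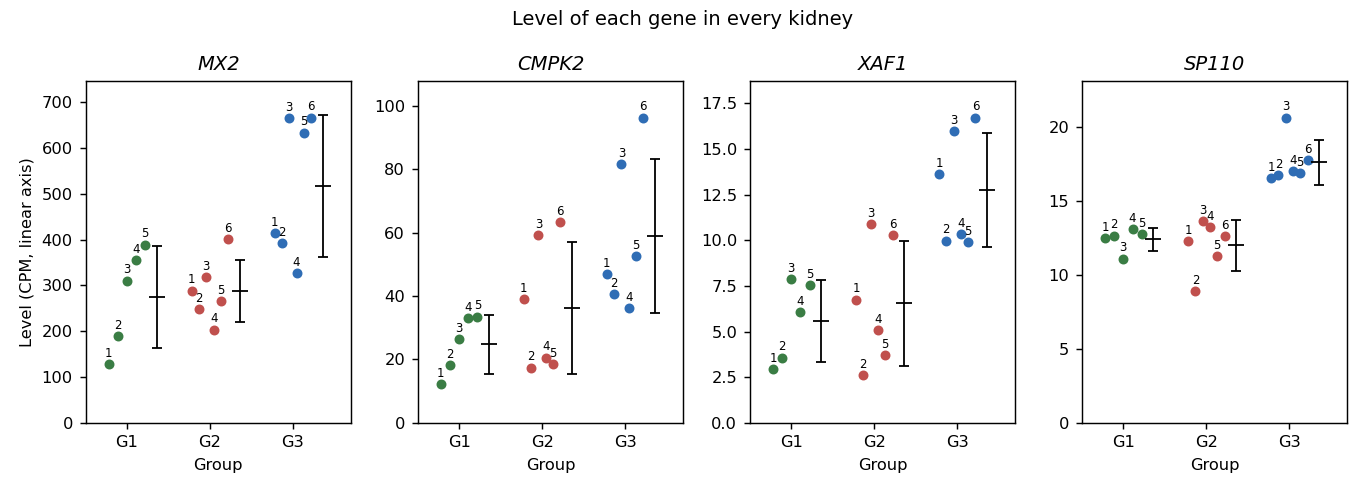
Level of MX2, CMPK2, XAF1 and SP110 (CPM, linear axis from 0, with its own scale for each gene) in each kidney of G1 (green), G2 (red) and G3 (blue), with the kidney number above its point and the group mean with SD beside it. SP110 is the gene whose 6 G3 kidneys (16.6 to 20.6 CPM) stand clear of all G1 and G2 kidneys (8.92 to 13.6 CPM), while G2 kidneys 3 and 6 reach into G3 for CMPK2 and XAF1, and G2 kidney 1 does so for CMPK2.

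The plot of levels by kidney also shows how unlike the 4 genes were in their spread within a group. Between the lowest and the highest of the 17 kidneys, the level varied 7.82-fold for CMPK2, 6.43-fold for XAF1, 5.20-fold for MX2 and 2.31-fold for SP110. Within groups, the coefficient of variation (CV, the SD as a percent of the mean) of SP110 was 6.21% in G1, 14.3% in G2 and 8.77% in G3. That of CMPK2 was 37.8% in G1, 57.5% in G2 and 41.1% in G3. MX2 had a CV of 40.6%, 23.6% and 30.0%, and XAF1 of 40.2%, 52.3% and 24.4%, in the same order of groups. Counting alone would give SP110 a CV of 5.04% to 6.25% and MX2 one of 0.932% to 1.30%.

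When EVs were given during HMP only, none of the 4 genes passed the test against G1. The fold change of G2 over G1 was 1.05 for MX2 (log2 0.07, SE 0.246, 95% interval of the fold 0.732 to 1.5, edgeR adjusted p = 0.985). It was 1.47 for CMPK2 (log2 0.55, SE 0.349, interval 0.882 to 2.45, edgeR adjusted p = 0.840) and 1.17 for XAF1 (log2 0.22, SE 0.356, interval 0.694 to 1.97, edgeR adjusted p = 0.936). The CMPK2 log2 value was 0.23 with the replicate block and 0.32 with limma voom or without G2 kidney 6, and that of XAF1 was -0.0190 with the block and 0.0124 without G2 kidney 3. Without G2 kidney 2 the CMPK2 and XAF1 values were 0.70 and 0.39. That of MX2 was -0.11 without G1 kidney 1 and 0.23 without G1 kidney 5. For SP110 the fold change was 0.965 (log2 -0.05, SE 0.145, interval 0.781 to 1.19, edgeR adjusted p = 0.973), and its log2 value was 0.0218 without G2 kidney 2. The intervals of CMPK2 and XAF1 are wide and take in the fold changes seen between G3 and G2, whereas that of SP110 ends at 1.19. The edgeR test called 0 of 25699 genes at an adjusted p under 0.05, limma voom 0 and DESeq2 1, and 901 genes (3.51%) had an unadjusted p under 0.05, which 0 of the 4 genes had. Within series A, with 2 kidneys in each group, the mean log2 CPM of G2 less that of G1 was 0.78 for MX2, 0.80 for CMPK2, 0.36 for XAF1 and -0.26 for SP110. Within series C, with 1 kidney of G1, it was -0.43, 0.04, -0.15 and -0.01 in the same order, so that the difference seen for MX2 and XAF1 had opposite signs in the series.

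Between G3 and G2, all 4 genes were higher in G3 with an unadjusted p under 0.05, and none had an adjusted p under 0.05. MX2 was 1.80-fold higher (log2 0.85, SE 0.205, interval 1.33 to 2.43, edgeR unadjusted p = 0.000674). XAF1 was 1.96-fold higher (log2 0.97, SE 0.297, interval 1.27 to 3.02, edgeR unadjusted p = 0.00446) and CMPK2 1.63-fold (log2 0.70, SE 0.332, interval 1.00 to 2.64, edgeR unadjusted p = 0.0484). SP110 was 1.47-fold higher (log2 0.56, SE 0.134, interval 1.21 to 1.79, edgeR unadjusted p = 0.000604). The edgeR adjusted p over all genes was 0.948 for each of the 4. By unadjusted p, SP110 was in place 10 and MX2 in place 13 of 25701 genes, of which the edgeR test and limma voom called 0 and DESeq2 3.

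These p-values are not independent of the choice of the genes, because the same G3 kidneys served to choose them. Over all genes, 1.61% were higher in G3 than in G2 with an unadjusted p under 0.05 (3.13% in either direction), and 1.35% also had a fold change over 1.5, as 3 of the 4 genes had. Complete separation, with every G3 kidney above every G2 kidney, was seen for SP110 and for 0.0584% of all genes. The number of G3 kidneys above all G2 kidneys was 4 for MX2, 3 for XAF1 and 2 for CMPK2. Within series C, with 4 kidneys in each group, the mean log2 CPM of G3 exceeded that of G2 by 0.93 for MX2, 0.85 for CMPK2, 0.92 for XAF1 and 0.51 for SP110. Within series A, with a single G3 kidney, it did so by 0.63, 0.85, 1.68 and 0.66. The direction was hence the same in both series for the 4 genes. The unadjusted p of CMPK2 was over 0.05 under a stricter filter on low counts (filterByExpr) and without G2 kidney 1, 2, 4 or 5 or G3 kidney 3, 5 or 6 (at most 0.141), and those of MX2, XAF1 and SP110 stayed under 0.05 in every alternative run. Among markers of other cell types, 0 of 5 stroma markers were higher in G3 than in G2 (median log2 fold change -0.41). COL1A1 and COL3A1 were lower with an edgeR unadjusted p under 0.05. The summed level of the 5 stroma markers was 344.9 to 664.5 CPM in G1, 406.4 to 835.1 CPM in G2 and 282.6 to 603.6 CPM in G3. Of 3 matched red blood cell markers 0 were higher (median -1.17, HBB under 0.05), with sums of 14.7 to 38.0, 18.96 to 60.4 and 21.5 to 49.1 CPM in G1, G2 and G3. Of 3 podocyte markers 1 was higher (median -0.33), with sums of 67.6 to 106.4, 62.9 to 146.4 and 62.6 to 90.0 CPM. Of 5 loop and distal tubule markers 1 was higher (median -0.10), and of 6 proximal tubule markers 2 were (median -0.05). No matched marker of these lists was at 0 in all kidneys, and their part in the differences of the 4 genes was not tested.

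**Figure D2:**
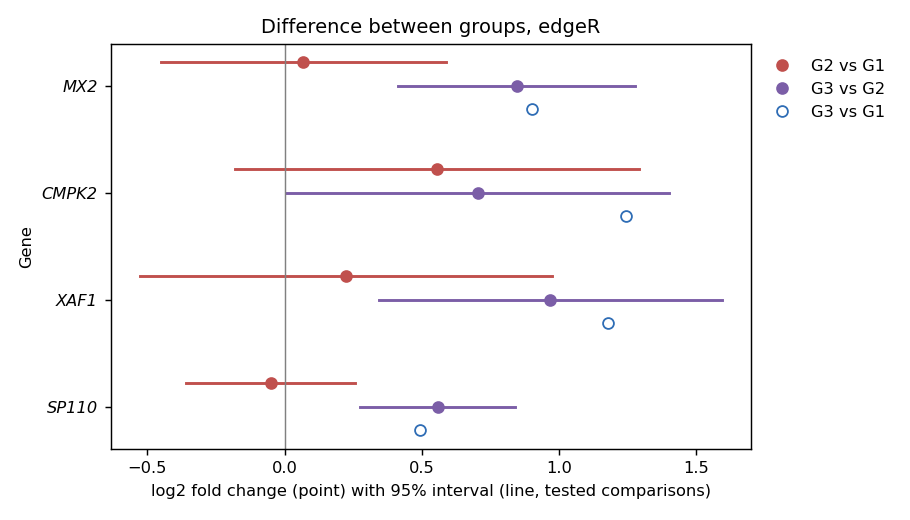
Log2 fold change (x axis) of the 4 genes for G2 over G1 (red), G3 over G2 (purple) and G3 over G1 (open blue circles), with the 95% interval as a line for the tested comparisons. The G2 over G1 intervals all cross 0, and the G3 over G2 points lie between 0.56 and 0.97.

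Between G3 and G1, the comparison from which the genes were chosen, the fold change was 2.37 for CMPK2 (log2 1.24, SE 0.274), 2.26 for XAF1 (log2 1.18, SE 0.252), 1.87 for MX2 (log2 0.90, SE 0.263) and 1.41 for SP110 (log2 0.50, SE 0.120). For CMPK2, XAF1 and SP110 the 6 G3 kidneys were all above the 5 G1 kidneys, against 0.124% of all genes, a count from which nothing is read here. The edgeR test called 2 of 25719 genes (0.00778%) in this comparison, BCAT2 and ENSSSCG00000050204, both lower in G3. Other settings gave other counts here, 31 with DESeq2, 11 with the code series as a covariate, 9 with the replicate block, 1 with limma voom and 0 with all 3 groups in one fit. Within series A, B and C the difference in mean log2 CPM was 1.41, 0.24 and 0.50 for MX2, 1.65, 0.46 and 0.89 for CMPK2, and 2.04, 0.52 and 0.77 for XAF1. For SP110 it was 0.39, 0.47 and 0.50. These values rest on a single kidney of G3 in series A and B and of G1 in series C. The difference for SP110 was thus much alike over the series, while that for the other 3 genes was widest in series A, where G1 kidneys 1 and 2 had the lowest MX2 levels of all 17 kidneys.

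Ranked from 1 (lowest) to 17 (highest), G3 kidneys 6 and 3 held the highest places, 16 and 17, for all 4 genes. The lowest mean places belonged to G2 kidney 2 (2.0) and G1 kidney 1 (2.25). G2 kidneys 3 and 6 had mean places of 11.75 and 11.5, of the order of G3 kidneys 2 and 4 (11.75 and 11.5). The same kidneys tended to be high or low for several genes at once. G2 kidneys 3 and 6 and G3 kidney 6 also had the fewest genes with a read (18926, 18813 and 18968) and the lowest TMM factors (0.880, 0.872 and 0.825) of the 17 libraries. The low G1 kidneys 1 and 2 and G2 kidneys 2 and 5 had 20686 to 20891 genes and factors of 1.08 to 1.09. Other high kidneys were unlike the first 3, as G3 kidney 3, in place 16 or 17 for each gene, had 20450 genes and a factor of 1.03. G3 kidneys 1 and 5, with mean places of 13.25 and 13, had 21049 and 20506 genes and factors of 1.03 and 1.10. The summed loop and distal tubule markers were highest in G3 kidney 6 (7491 CPM) and G2 kidneys 6 and 3 (6531 and 5883 CPM). In these kidneys the red blood cell sums were also the highest (49.1, 55.5 and 60.4 CPM). G3 kidney 3 had 3531 and 25.1 CPM for these lists. The part of library makeup and of cell types in the shared pattern was not tested. The pattern was examined with the mean of each group subtracted, which leaves out the difference between groups, over 6 pairs of genes in 17 kidneys.

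Of the 6 pairs, CMPK2 and XAF1 had the highest r (Pearson r = 0.913, permutation p = 1e-05, Spearman rho = 0.895, p = 2e-05, and r = 0.855 without the 2 kidneys farthest from the median of CMPK2). MX2 and CMPK2 followed (r = 0.831, permutation p = 1e-05, rho = 0.814, p = 1e-05, and r = 0.797 without 2 kidneys). The value 1e-05 is the smallest that 100000 permutations can give, and after Benjamini-Hochberg adjustment over the 6 pairs these p-values were 3e-05 for r and 6e-05 for rho in both pairs. MX2 and XAF1 had r = 0.693 (permutation p = 0.00212, adjusted 0.00424), rho = 0.676 (p = 0.00608, adjusted 0.0122) and r = 0.638 without 2 kidneys. With the mean of the code series subtracted as well, r was 0.894, 0.790 and 0.585 for these 3 pairs, and with library size in place of TMM it was 0.887, 0.765 and 0.606.

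Over all 17 kidneys the pairs with SP110 had lower r, though the difference between correlations was not tested. With MX2 SP110 had r = 0.218 (permutation p = 0.337, adjusted 0.337) and rho = 0.311 (p = 0.216, adjusted 0.216), and r = 0.279 without 2 kidneys. With CMPK2 it had r = 0.541 (permutation p = 0.0477, adjusted 0.0573) and rho = 0.578 (p = 0.0310, adjusted 0.0465), and r = 0.404 (p = 0.161) without 2 kidneys. With XAF1 it had r = 0.574 (permutation p = 0.0409, adjusted 0.0573) and rho = 0.520 (p = 0.0502, adjusted 0.0603), and r = 0.366 (p = 0.204) without 2 kidneys, which were G1 kidney 1 and G2 kidney 2. The 2 latter relations moved in both directions with single kidneys. For CMPK2 with SP110, r was 0.595 without G1 kidney 3, 0.663 without G2 kidney 4 and 0.596 without G1 kidney 1 (permutation p adjusted over the 6 pairs 0.0265, 0.0179 and 0.0449), and 0.441 without G2 kidney 2 (adjusted 0.166). For XAF1 with SP110, r was 0.719, 0.627 and 0.630 without the same 3 kidneys and 0.609 without G1 kidney 2 (permutation p, adjusted 0.00442, 0.0356, 0.0438 and 0.0498), and 0.312 without G2 kidney 2 (adjusted 0.304). They also depended on the scaling, since with library size in place of TMM r was 0.0729 for CMPK2 with SP110, 0.132 for XAF1 with SP110 and 0.0470 for MX2 with SP110. With the code series centred r was 0.452, 0.502 and 0.0154 in the same order. In the 6 G3 kidneys alone the order was not the same, as r was 0.582 for MX2 with SP110 and 0.571 for MX2 with XAF1, neither under 0.05 by exact permutation (p = 0.175 and 0.189). With the small range of SP110 within groups, counting error takes up more of its spread than for MX2, and its part in the lower r was not tested.

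**Figure D3:**
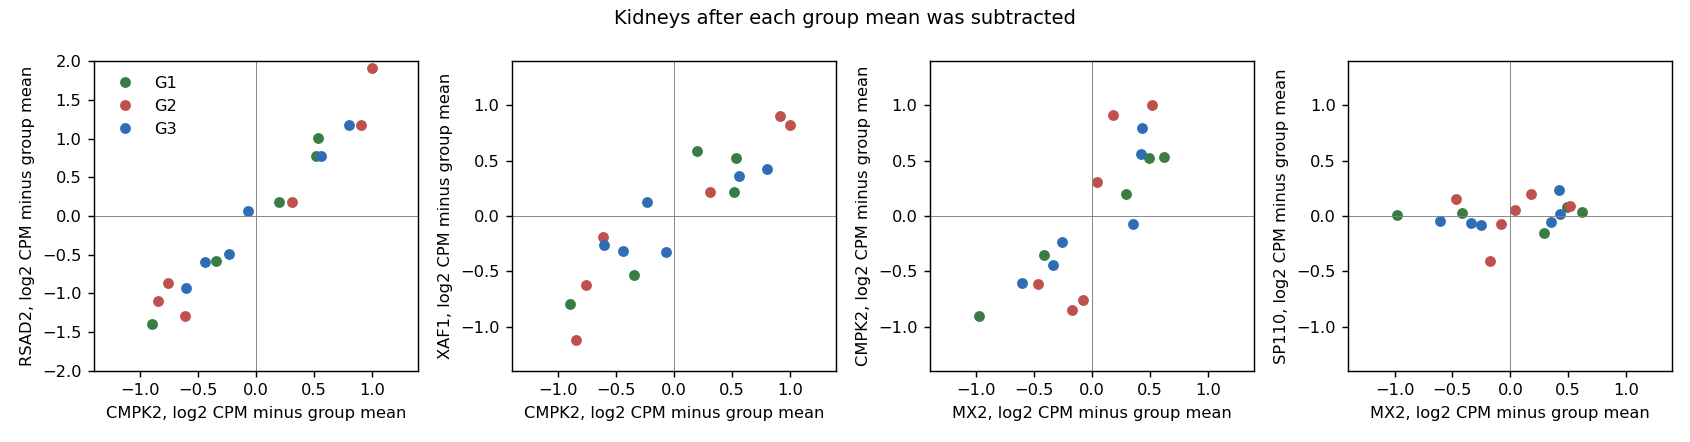
Log2 CPM less the group mean, on both axes, for CMPK2 against RSAD2, CMPK2 against XAF1, MX2 against CMPK2 and MX2 against SP110, with 1 point per kidney (G1 green, G2 red, G3 blue). Points rise together in the first 3 panels (r = 0.980, 0.913 and 0.831). The last panel (r = 0.218) is a flat band because SP110 runs only from -0.41 to 0.23, so its shape does not show r.

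Among 13710 genes with a mean of at least 1 CPM, the genes most like each of the 4 were found by the same r over 17 kidneys, given as a description. For MX2 they were IFIH1 (r = 0.961), which encodes the RNA sensor MDA5, ZNFX1 (0.925), an interferon-induced helicase, and TSC22D2 (0.919). For CMPK2 they were its neighbour RSAD2 (0.980), DHX58 (0.954), which encodes the RNA sensor LGP2, and IFIT5 (0.953), an RNA-binding effector. For XAF1 they were CMPK2 (0.913), NACC2 (0.901) and ZBP1 (0.890), a nucleic acid sensor. For SP110 they were CEP164 (0.869), a centriole protein, ESPN (0.866), an actin bundler, and IRF2 (0.848), a transcription factor of the interferon response. An r of at least 0.9 was reached by 13 genes with CMPK2, 6 with MX2, 2 with XAF1 and 0 with SP110, of which 10 for CMPK2, 5 for MX2 and 0 for XAF1 were interferon genes of the lists described further on. CMPK2 and XAF1 were themselves a pair at this r.

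The family members and neighbours were followed as well. MX1 had 127.3 ± 44.6 CPM (mean ± SD) in G1, 172.6 ± 78.6 in G2 and 293.6 ± 118.9 in G3, and its r with MX2 was 0.869, in place 10 of all genes. RSAD2 had 47.3 ± 27.5 CPM in G1, 93.6 ± 87.7 in G2 and 167.1 ± 99.9 in G3. RSAD2 was more spread than CMPK2 in G2, from 26.7 to 246.6 CPM, and its G3 over G2 log2 fold change of 0.83 (SE 0.50) had an edgeR unadjusted p of 0.113. SP140, a chromatin reader like SP110, had 31.0 ± 3.13 CPM in G1, 32.2 ± 4.32 in G2 and 43.2 ± 4.38 in G3. Its 6 G3 kidneys (38.6 to 50.3 CPM) were above all G2 kidneys (27.1 to 37.7 CPM), as for SP110, though its r with SP110 within groups was 0.494. The reads that SP110 may share with SP140 or LOC106508139 over their overlaps were not separated here.

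XIAP, the partner of XAF1, had 77.6 ± 15.9 CPM in G1, 79.8 ± 8.05 in G2 and 94.0 ± 10.9 in G3, and its r with XAF1 within groups was 0.01. The related inhibitor BIRC2 had r = -0.516 with XAF1 and BIRC3 had r = -0.333. These 3 values are descriptions over 17 kidneys.

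To set the 4 genes among the rest of their pathway, 125 further genes were grouped by role into 11 lists, and 108 of them could be matched to an identifier. Between G2 and G1, 5 of the 108 were higher with an unadjusted p under 0.05 and 0 lower, against 1.42% of all genes higher, and the median log2 fold change was 0.10. Between G3 and G2, 38 were higher and 0 lower, against 1.61% of all genes higher, and the median was 0.33. The median of all genes was -0.00536 and -0.00178 in these comparisons, and 0 of the 108 had an edgeR adjusted p under 0.05 in either. The log2 fold changes of MX2 (0.85), XAF1 (0.97), CMPK2 (0.70) and SP110 (0.56) for G3 over G2 were all above the median of the 108. Since the 4 genes were chosen as higher in these same G3 kidneys, nothing is read from this. The lists were also drawn up with earlier results of these data known. Their counts, here and by list below, are thus a description and no test of the pathway.

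The interferons themselves gave few reads. IFNB1, IFNG, IFNE and IFNK were the 4 of 7 ligand genes matched, and each had 0 to 20 reads per kidney, at most 16 in G3. No fold change is given for them. Of the 6 receptor genes, 0 had an unadjusted p under 0.05 between G3 and G2 (median log2 fold change 0.12). Of the 12 signalling genes 11 had a positive fold change for G3 over G2, and 3 of them had an unadjusted p under 0.05. These were STAT2 (log2 0.44, edgeR unadjusted p = 0.0234), IRF9 (0.43, unadjusted p = 0.00396) and IRF7 (0.52, unadjusted p = 0.0315). Of the 12 sensors 9 had a positive fold change, and 4 of them had an unadjusted p under 0.05. These were IFIH1 (0.64, edgeR unadjusted p = 0.00220), DHX58 (0.69, unadjusted p = 0.0149), ZBP1 (0.73, unadjusted p = 0.0262) and RIGI (0.70, unadjusted p = 0.0314).

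Of the classes to which the 4 genes belong, the nucleotide and RNA effectors held the most further genes under 0.05 between G3 and G2, 8 of 11 with a median log2 fold change of 0.73. Examples were OAS2, which makes the activator of RNase L (log2 1.04, edgeR unadjusted p = 0.00394), and EIF2AK2, the kinase PKR that halts translation (0.78, unadjusted p = 0.000280). Of the antiviral GTPases beside MX2, 5 of 5 had a positive fold change (median 0.43). Under 0.05 were 2 of these 5, MX1 among them (0.77, edgeR unadjusted p = 0.0168). Of the nuclear body genes beside SP110, 7 of 10 had a positive fold change (median 0.23), and 3 of the 10 were higher with an unadjusted p under 0.05. SP140 was at 0.43 (edgeR unadjusted p = 0.00226) and PML, the scaffold of these bodies, at 0.36 (unadjusted p = 0.124). Of the cell death effectors beside XAF1, 8 of 11 had a positive fold change (median 0.13), with BCL2L14 at 0.56 (edgeR unadjusted p = 0.0638). Only 1 of the 11 was under 0.05, which was XIAP (0.24, edgeR unadjusted p = 0.0488). The XAF1 difference of 0.97 was above those of all 11. XAF1 was chosen as higher in the same G3 kidneys, so nothing is read from this order.

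In the lists without one of the 4 genes, 14 of 20 other interferon-stimulated genes (median 0.74), 3 of 11 antigen presentation genes (median 0.35) and 0 of 7 inhibitors of the response (median -0.01) were higher in G3 than in G2 with an unadjusted p under 0.05. Between G2 and G1 the medians of the 10 lists other than the ligands ran from 0.01 to 0.30.

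**Figure D4:**
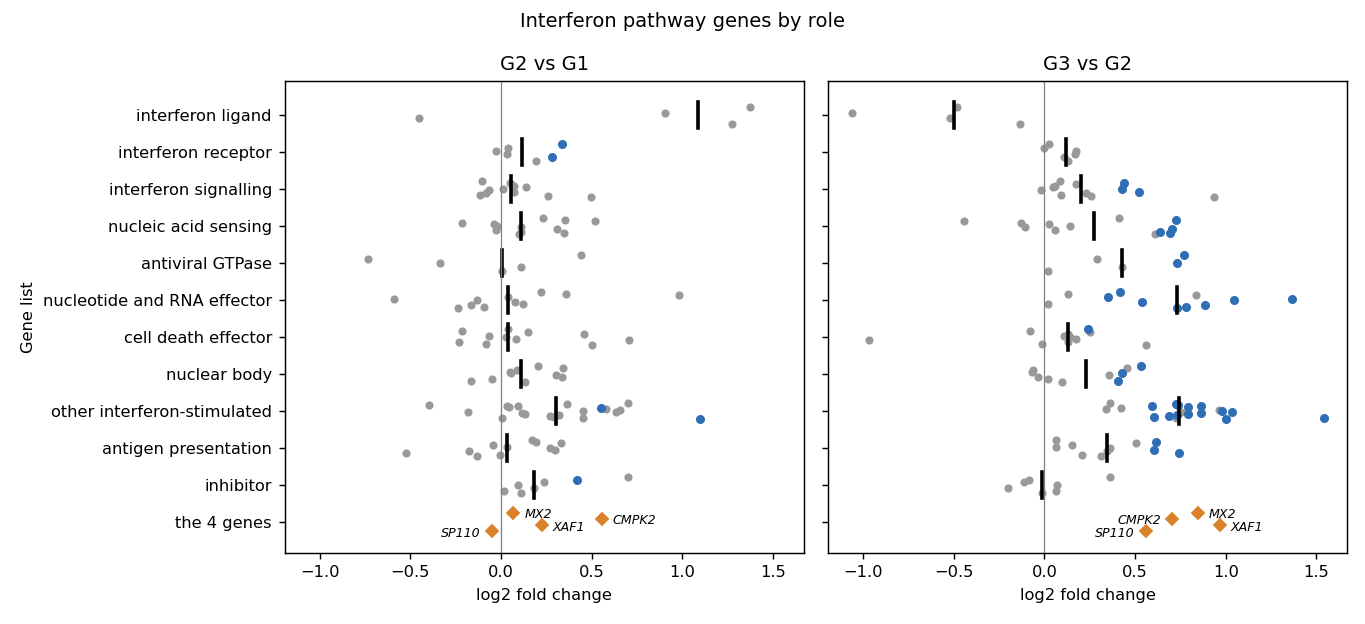
Log2 fold change (x axis) of each matched gene of the 11 lists (rows) for G2 over G1 and G3 over G2, with genes of unadjusted p under 0.05 in blue and the others in grey, the list median as a bar, and the 4 genes as orange diamonds in the bottom row. Blue points number 5 of 108 for G2 over G1 and 38 of 108 for G3 over G2, and all lie to the right of 0. The lists were drawn up with earlier results of these data known, so these counts are a description.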

How the data were processed

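Sequencing libraries (Illumina Stranded mRNA) were made from RNA with a RIN above 8.1. Adapters were removed by the authors (cutadapt 4.0), the reads were mapped to Sscrofa11.1 (STAR 2.7.5a, Ensembl genes), and the unnormalized read counts of each gene were deposited. The counting program is not given in the sources used here. A deposited table of the authors' own DESeq2 comparison of G3 with G1 (fold changes, p-values) was not used. Every column was mapped to a sample (0 left unmapped).

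Pairs of groups were compared with the edgeR 4.0.16 quasi-likelihood test (R 4.3.3) with TMM normalization and Benjamini-Hochberg adjustment, on genes with at least 1 count, at an adjusted p under 0.05. SE was the log2 fold change over the square root of F. Log2 CPM used a prior count of 2, and 100000 two-sided permutations within groups served for correlations (seed 1; Python 3.11.15, numpy 2.4.6, pandas 2.3.3, scipy 1.17.1, matplotlib 3.10.9). The scripts were checked on simulated counts. Over 40 pairs of kidneys of one group, chi-square per degree of freedom was 21.4 to 153, so no library was a copy of another in its group. Pairs across groups were not checked in this way.

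Alternatives were DESeq2 1.42.0, limma 3.58.1 voom with quality weights, RLE factors, library size only, filterByExpr, all 3 groups in one fit, a replicate block, code series as covariate, a prior count of 0.5, and leaving out each kidney. Symbols were matched for 15093 genes and positions taken from RefSeq for Sscrofa11.1. Genes named were the 4 genes, list genes where the list is described, their neighbours or family members (MX1, RSAD2, SP140, XIAP, BIRC2, BIRC3), the 3 most like each, and all called genes where 5 or fewer. BIRC3 was taken from the cell death list. The genes and lists were chosen with earlier results of these data known.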

Additional observations from a re-analysis of the deposited data

Results flagged for a closer look

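The SP110 level of G3 kidney 3, 20.6 CPM, lay far from the other 5 G3 kidneys by Dixon's test, with a gap of 0.698 of the group's range. Of 24 groups of values tested this was the 1 that passed, where chance gives 1.2.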

How the results depend on the processing

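For G2 over G1 and G3 over G2, none of the 4 genes had an adjusted p under 0.05 in any alternative. No p is given for G3 over G1, from which they were chosen. For G3 over G2 the lowest was 0.0519, for MX2 and XAF1 with the replicate block, and the direction held in all of them. Leaving out each kidney gave 0.76 to 0.97 for MX2, 0.51 to 0.94 for CMPK2, 0.80 to 1.17 for XAF1 and 0.48 to 0.60 for SP110. For G2 over G1, signs were not stable. MX2 was -0.0225 with library size only, and -0.11 to 0.23 leaving out each kidney. SP110 ran from -0.10 to 0.02, and was 0.0218 without G2 kidney 2. XAF1 was -0.0190 with the replicate block (0.01 to 0.39 leaving out each kidney). CMPK2 was 0.23 with the replicate block, 0.32 with limma voom and 0.32 to 0.70 leaving out each kidney (0.32 without G2 kidney 6, 0.35 without G2 kidney 3), against 0.55. The cause was not tested.

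The count of genes called between G2 and G1 was 1 with DESeq2 and 2 with the code series. Between G3 and G2 it was 3 with DESeq2, 7 with the replicate block and 0 to 5 leaving out each kidney (5 without G2 kidney 2). Between G3 and G1 it was 31 with DESeq2, 1 with limma voom, 1 with filterByExpr, 0 with all 3 groups in one fit (edgeR, 1126 at an unadjusted p under 0.05), 9 with the replicate block, 11 with the code series and 0 to 9 leaving out each kidney (9 without G1 kidney 5). With library size only, the median log2 fold change of all genes there was -0.11, against -0.02. The kidney numbers do not pair animals: same-numbered kidneys had r from -0.145 to 0.173 (G2 and G1), -0.255 to 0.445 (G3 and G2) and -0.127 to 0.397 (G3 and G1), and 0 of 5, 2 of 6 and 2 of 5 were closest to their own number.

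Leaving out each kidney, r was 0.441 to 0.663 for CMPK2 with SP110 and 0.312 to 0.719 for XAF1 with SP110. In G2 alone, chosen after seeing the data, r was 0.695 for MX2 with XAF1 (exact permutation p adjusted over 6 pairs 0.173, no longer under 0.05) and 0.829 for XAF1 with SP110 (adjusted 0.0472). By Spearman rho the latter pair was not under 0.05 (rho = 0.829, exact permutation, adjusted 0.117). In G3 alone r was 0.886 for MX2 with CMPK2, 0.571 for MX2 with XAF1 and 0.855 for CMPK2 with XAF1, and none of these 3 was under 0.05 after adjustment (exact permutation, 0.075, 0.189 and 0.104). By Spearman, rho was 1, 0.6 and 0.6 in the same order (exact permutation, adjusted 0.0167, 0.297 and 0.297), so that MX2 with CMPK2 was under 0.05. For SP110 the CV between kidneys was 6.21%, 14.3% and 8.77% in G1, G2 and G3, against 6.09%, 6.25% and 5.04% from counting alone. The part of depth in its results was not tested.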
